A study of Mus musculus with 6 samples.

Results

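The immunity-related GTPases are a family of interferon-inducible GTPases, and 8 of their genes in the mouse were followed here in embryonic fibroblasts that lack the mitochondrial protease YME1L: Igtp (also named Irgm3), Irgm1, Irgm2, Iigp1 (Irga6), Ifi47 (Irgd), Tgtp1 (Irgb6), Tgtp2 and Gm12185 (Irgb2b1). The members were chosen by symbol from the table of raw fragment counts, where names that hold several symbols were split at the commas. All 8 symbols were found, in 6 of the 51499 loci of that table. Of these 6 loci, 3 are merged, because the authors joined overlapping transcripts into 1 locus whose count cannot be divided among its genes. Igtp shares a locus with Irgm2, Tgtp1 shares a locus with Gm12185, and Ifi47 shares a locus with the olfactory receptor gene Olfr56, so only Irgm1, Tgtp2 and Iigp1 were counted alone.

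RNA sequencing of poly(A)-selected transcripts had been carried out on 3 cultures of wild-type (WT) and 3 cultures of Yme1l-/- fibroblasts, for which the labels name no treatment. All 6 cultures derive from fibroblasts whose Yme1l alleles were floxed and which were immortalized with SV40. According to the study, cells exposed to Cre recombinase were expanded as single clones, and clones that still carried both floxed alleles (Yme1l fl/fl) served as WT whereas clones with the deletion were the Yme1l-/- cells. Differences between clones and differences between genotypes therefore cannot be told apart, and the p-values given here measure the spread between cultures. The libraries held between 33180867 and 49351107 counted fragments, and the largest were replicates 2 and 3 of Yme1l-/-. Yme1l1, the symbol of the deleted gene in the table, held 6327, 6292 and 5968 fragments in WT and 1327, 1963 and 2067 in Yme1l-/-. It fell from 189 ± 5.16 CPM (counts per 1e6 fragments of the scaled library) in WT to 39.1 ± 1.34 CPM in Yme1l-/- (mean ± SD, n = 3, log2 fold change -2.27 ± 0.05, edgeR adjusted p = 2.43e-11), and fragments were still assigned to this locus in the Yme1l-/- libraries. The summed level of 8 fibroblast markers was 10833 to 11395 CPM in WT and 6642 to 7130 CPM in Yme1l-/-, a fall carried mainly by Vim and Fn1. Col1a1 went the other way, from 1505 to 1675 CPM in WT to 2103 to 2305 CPM in Yme1l-/-, and Thy1, with 4 to 6 fragments in WT, was at 0 in Yme1l-/-. Macrophages can also express these GTPases, and the summed level of 8 macrophage markers was 2.57 to 2.93 CPM in WT and 3.91 to 4.22 CPM in Yme1l-/-, with Adgre1 and Tyrobp at 0 in every library. The summed level of 4 endothelial markers was 0.888 to 1.43 CPM in WT and 1.67 to 2.00 CPM in Yme1l-/-, and that of 4 epithelial markers 1.62 to 1.87 CPM and 0.178 to 0.286 CPM. Of 4 T cell markers no fragment was counted in WT, and the sum was at most 0.0857 CPM in Yme1l-/-. The part of these marker differences in the results was not tested.

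As background, immunity-related GTPases are induced by interferons in mouse cells and protect them against microbes that live inside membrane vacuoles. The effectors of the family (Iigp1, Tgtp1, Tgtp2, Ifi47 and related proteins) gather on the vacuole and help to break it, while the regulators (Irgm1, Irgm2 and Igtp) sit on the membranes of the cell's own organelles and keep the effectors inactive there. Transcription of the family is driven through STAT and IRF factors, which bind short DNA elements named GAS (gamma-activated site) and ISRE (interferon-stimulated response element) near the start of transcription.

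The 100 bases ahead of the start site of each member are shown first, from RefSeq on build GRCm38.p6. The promoter table held 7 of the 8 members, and Iigp1 had no entry there. It gives 1 start site for each gene, and the windows of Irgm1, Irgm2, Tgtp1 and Gm12185 lie inside the GENCODE spans of these genes, so all that follows holds for these start sites only. Each window is written 5′ to 3′ on the strand of its gene, and capitals mark matches to the GAS letters (TTC, any 3 bases, GAA) or to the ISRE-like letters (GAAA, any 2 bases, GAAA). Both strands were searched, which for the ISRE-like letters adds TTTC, any 2 bases, TTTC, while the GAS letters are their own reverse. The windows are Igtp at chr11:58199456-58199555 (plus strand), Irgm2 at chr11:58214877-58214976 (plus), Irgm1 at chr11:48871421-48871520 (minus), Tgtp1 at chr11:48992247-48992346 (minus), Tgtp2 at chr11:49064213-49064312 (minus), Gm12185 at chr11:48927183-48927282 (minus) and Ifi47 at chr11:49076487-49076586 (plus).
Igtp: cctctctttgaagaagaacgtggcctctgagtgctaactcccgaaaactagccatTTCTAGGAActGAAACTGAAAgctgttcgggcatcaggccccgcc
Irgm2: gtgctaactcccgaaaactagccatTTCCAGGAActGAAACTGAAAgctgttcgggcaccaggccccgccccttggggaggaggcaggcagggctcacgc
Irgm1: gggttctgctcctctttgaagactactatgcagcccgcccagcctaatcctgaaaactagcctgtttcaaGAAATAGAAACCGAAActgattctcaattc
Tgtp1: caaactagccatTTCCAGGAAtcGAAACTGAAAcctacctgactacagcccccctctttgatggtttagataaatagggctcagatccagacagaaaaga
Tgtp2: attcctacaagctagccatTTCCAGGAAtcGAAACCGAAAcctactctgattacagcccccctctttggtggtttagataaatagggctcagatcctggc
Gm12185: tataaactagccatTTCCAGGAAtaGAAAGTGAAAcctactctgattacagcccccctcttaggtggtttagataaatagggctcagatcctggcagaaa
Ifi47: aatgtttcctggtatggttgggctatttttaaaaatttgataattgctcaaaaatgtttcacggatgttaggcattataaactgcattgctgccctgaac

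Of these windows, 5 share the same arrangement, a GAS match followed after 2 bases by an ISRE-like match. In Igtp the GAS match lies at bases -45 to -37 from the start site and the ISRE-like match at -34 to -25. In Irgm2, Tgtp1, Tgtp2 and Gm12185 the same pair begins farther upstream, at -75, -88, -81 and -86 respectively. Irgm1 carries overlapping ISRE-like matches at -30 to -21 and -24 to -15 and no GAS match, and the Ifi47 window has neither set of letters. Over promoters of 300 bases (250 before and 50 after the start site), the ISRE-like letters were present in 6 of the 7 members and in 3.44% of 32851 promoters in the table. The GAS letters were present in 5 of the 7 members and in 8.30% of promoters, and both were present in 5 of the 7 members and in 0.454% of promoters. The joined element, GAS letters then any 2 bases then ISRE-like letters, was written down after the member promoters had been seen. It occurred in 5 of 32851 promoters (0.0152%), and those 5 are the members Igtp, Irgm2, Tgtp1, Tgtp2 and Gm12185. They form 2 groups of closely related sequence and are not 5 independent cases. Over the aligned bases, the promoters of Igtp and Irgm2 were 93.6% identical, and those of Tgtp1, Tgtp2 and Gm12185 were 82.2% to 96.6% identical to one another. Between the groups identity was 68.8% to 73.8%. Irgm1, which lacks the joined element, was 77% identical to Igtp and 67.8% to Tgtp2, over aligned stretches that differ in length. A match of letters is a description and no binding was measured.

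**Figure D1:**
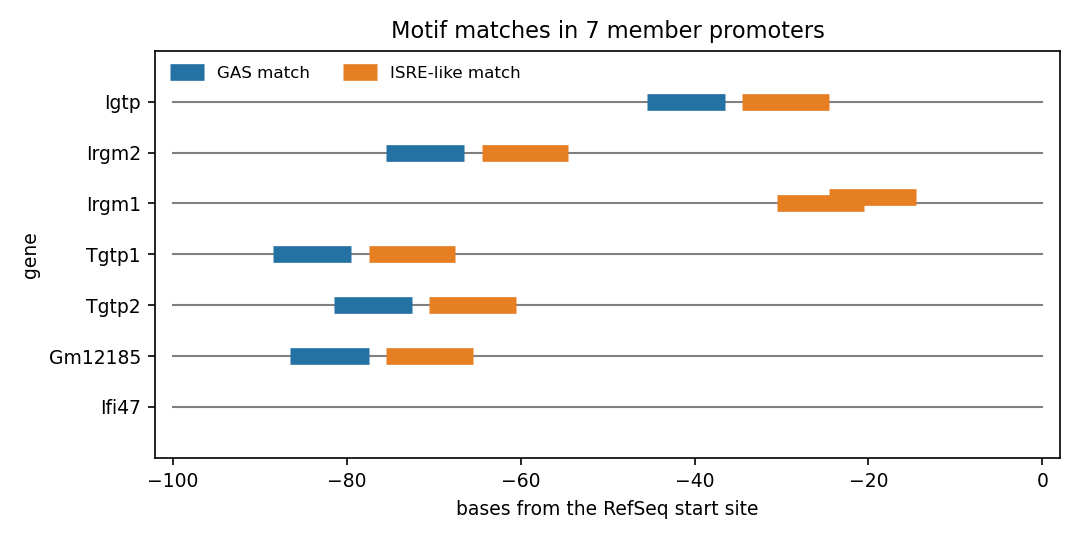
Positions of the GAS matches (blue) and ISRE-like matches (orange) in the 100 bases ahead of the RefSeq start site of 7 members, with distance from the start site in bases on the x axis. In 5 genes a GAS match is followed after 2 bases by an ISRE-like match, Irgm1 has 2 overlapping ISRE-like matches, and Ifi47 has no match.

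The 6 loci lie in 3 places of the genome (GENCODE M21, GRCm38). Irgm1 (chromosome 11, 48861968 to 48871683), Gm12185 (48904656 to 48992226), Tgtp1 (48985327 to 48994172) and Tgtp2 (49057194 to 49064206) follow each other on the minus strand, and Ifi47 (49076587 to 49096974) lies next to them on the plus strand inside the annotated span of Olfr56 (48978889 to 49135387). The annotated spans of Gm12185 and Tgtp1 overlap on the same strand. Igtp (58199556 to 58207591) and Irgm2 (58199618 to 58222782) overlap on the plus strand of the same chromosome, and Iigp1 lies on chromosome 18 (60376027 to 60392634, plus strand). Copies of near-identical sequence matter for what the counts mean. Of the distinct 100-base stretches in the annotated transcripts of Tgtp2, 76.8% also occurred in another gene, and the share was 73.1% for Tgtp1, with 2180 stretches common to both. The share was 7.41% for Gm12185, 5.16% for Igtp, 3.01% for Irgm2, 0.561% for Ifi47 and 0 for Irgm1 and Iigp1. How the counting treated fragments that map to several places is not given in the sources used here, so the split between the Tgtp1 and Tgtp2 loci is uncertain.

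All 6 loci were higher in Yme1l-/- than in WT fibroblasts. The increase ranged from 1.16 ± 0.29 (log2 fold change ± SE) for the Gm12185,Tgtp1 locus to 5.93 ± 0.41 for Tgtp2. In the quasi-likelihood test of edgeR, adjusted by Benjamini and Hochberg's method over 13867 tested loci, 6 of 6 loci were called higher at an adjusted p under 0.05, and each of the 6 was at least 2-fold higher. Among all tested loci 67.7% were called in either direction, 33.6% were called higher, 34.1% were called lower and 9.10% were called and at least 2-fold higher, so a call alone is common in this comparison. In 5 of the 6 loci every Yme1l-/- library lay above every WT library, and Iigp1 was the exception. The same held for 35.9% of all tested loci, and in a further 36.0% every Yme1l-/- library lay below every WT library. The median log2 fold change was 2.27 over the 6 loci and -0.0041 over all tested loci. Only Irgm1, Igtp,Irgm2 and Gm12185,Tgtp1 had 10 or more fragments in every library, so Ifi47,Olfr56, Tgtp2 and Iigp1 could enter the test through their Yme1l-/- libraries, and the counts over 6 loci are to be read with that in mind. In bulk RNA a change in the number of cells that express a gene and a change in RNA per cell cannot be told apart.

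Irgm1, a regulator that sits on Golgi, lysosomal and mitochondrial membranes, was the most abundant of the loci in both genotypes. Its counts were 967, 979 and 990 fragments in WT replicates 1 to 3 and 3345, 5010 and 5094 in Yme1l-/- replicates 1 to 3. Scaled to library size these were 29.2, 29.9 and 30.3 CPM in WT and 95.5, 99.3 and 99.9 CPM in Yme1l-/-. The replicates of each genotype lay close together and the genotypes did not overlap. Irgm1 was 3.30-fold higher in Yme1l-/- (log2 fold change 1.72 ± 0.05, edgeR adjusted p = 1.3e-10), which was the 645th highest log2 fold change of 13867.

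The locus of Igtp and Irgm2, which encode the other regulators of the family, had a larger fold change than Irgm1. It held 226, 249 and 197 fragments in WT and 1535, 2484 and 2607 in Yme1l-/-, or 6.82, 7.60 and 6.03 CPM against 43.8, 49.2 and 51.1 CPM. All Yme1l-/- libraries were far above all WT libraries. The locus was 7.05-fold higher (log2 fold change 2.82 ± 0.09, edgeR adjusted p = 4.93e-10), the 289th highest change. For each fragment of Irgm1, the WT libraries held 0.234, 0.254 and 0.199 fragments of Igtp,Irgm2 and the Yme1l-/- libraries 0.459, 0.496 and 0.512. The ratio was thus higher in every Yme1l-/- library, by 1.10 on the log2 scale, and the exact two-sided permutation test gave p = 0.1, the smallest value that 3 against 3 libraries allow. Which of Igtp and Irgm2 carried the change cannot be read from the merged count.

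Ifi47, an effector of the family, shares its count with Olfr56 and was low in WT. The counts were 8, 23 and 9 fragments in WT and 168, 228 and 261 in Yme1l-/-, which is 0.242, 0.702 and 0.276 CPM against 4.80, 4.52 and 5.12 CPM. WT replicate 2 was above the other WT libraries, and still below every Yme1l-/- library. The locus was 11.8-fold higher in Yme1l-/- (log2 fold change 3.56 ± 0.28, edgeR adjusted p = 6.43e-07), and without WT replicate 2 the log2 fold change was 4.20.

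Tgtp2 encodes an effector that is nearly identical to the product of Tgtp1. It was nearly absent from WT, with 1, 0 and 2 fragments, and held 69, 102 and 110 fragments in Yme1l-/- (0.0302, 0 and 0.0612 CPM against 1.97, 2.02 and 2.16 CPM). The genotypes were widely separated. Summed over libraries, 3 fragments in WT stood against 281 in Yme1l-/-, a ratio of 67.7 after scaling to library size with an exact 95% interval of 22.9 to 330.0 that covers counting error only. The fitted log2 fold change of 5.93 ± 0.41 (edgeR adjusted p = 2.2e-07) rests on so few WT fragments that its size depends on the prior count, and it was 5.40 without WT replicate 2 and 6.81 without WT replicate 3.

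The locus of Gm12185 and Tgtp1 had the smallest change. It held 13, 17 and 27 fragments in WT and 38, 80 and 61 in Yme1l-/- (0.393, 0.519 and 0.827 CPM against 1.09, 1.59 and 1.20 CPM). The genotypes did not overlap, with a small gap between the highest WT and the lowest Yme1l-/- library. The locus was 2.24-fold higher (log2 fold change 1.16 ± 0.29, edgeR adjusted p = 0.00413). Since fragments of Tgtp1 and Tgtp2 can be exchanged, both loci were also summed, an alternative chosen after seeing the data. The sum was 14, 17 and 29 fragments in WT and 107, 182 and 171 in Yme1l-/-. It rose 5.47-fold (log2 fold change 2.45 ± 0.24, edgeR adjusted p = 3.17e-06), a value that does not use the division of fragments between the pair.

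Iigp1, the effector whose protein is the best studied of the family, was the only member outside chromosome 11 and its change had the largest standard error of the 6 loci. Its counts were 4, 18 and 4 fragments in WT and 19, 42 and 54 in Yme1l-/- (0.121, 0.550 and 0.122 CPM against 0.543, 0.833 and 1.06 CPM). The genotypes overlapped, because WT replicate 2 lay just above Yme1l-/- replicate 1. The log2 fold change was 1.64 ± 0.50 (edgeR adjusted p = 0.0132). The call was lost without WT replicate 3 (edgeR adjusted p = 0.0512) and without Yme1l-/- replicate 3 (edgeR adjusted p = 0.0514), and the log2 fold change ran from 1.29 without WT replicate 1 to 2.73 without WT replicate 2. WT replicate 2 was thus the highest WT library for both Ifi47,Olfr56 and Iigp1.

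**Figure D2:**
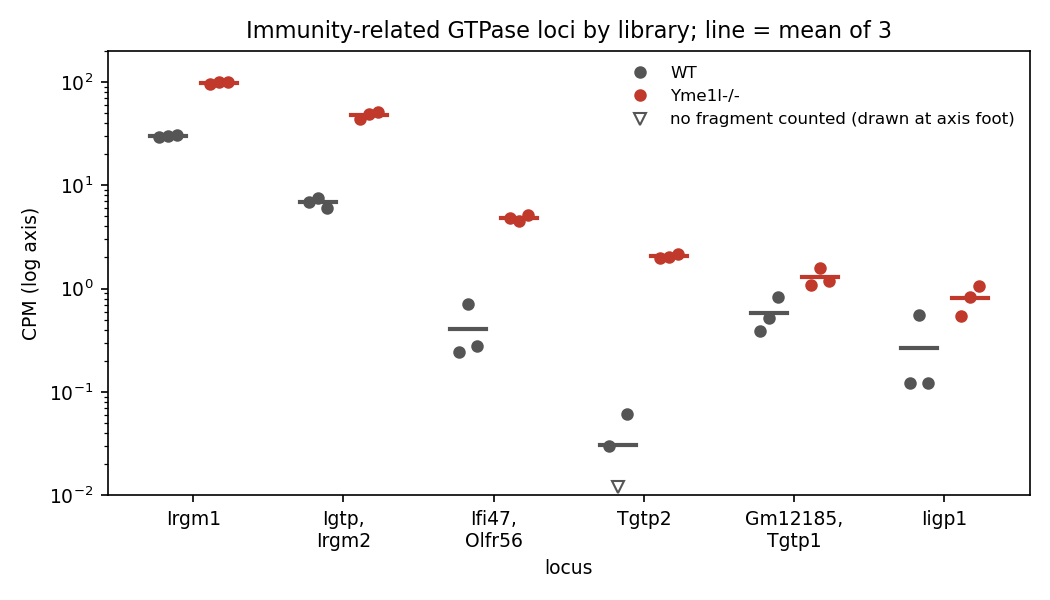
Level of each member locus in CPM (log axis) in the 3 WT and the 3 Yme1l-/- libraries, each point being 1 library, each line the mean of 3, and the open triangle a WT library of Tgtp2 with 0 fragments. The Yme1l-/- points lie above the WT points in 5 loci, whereas for Iigp1 WT replicate 2 (0.550 CPM) reaches Yme1l-/- replicate 1 (0.543 CPM).

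**Figure D3:**
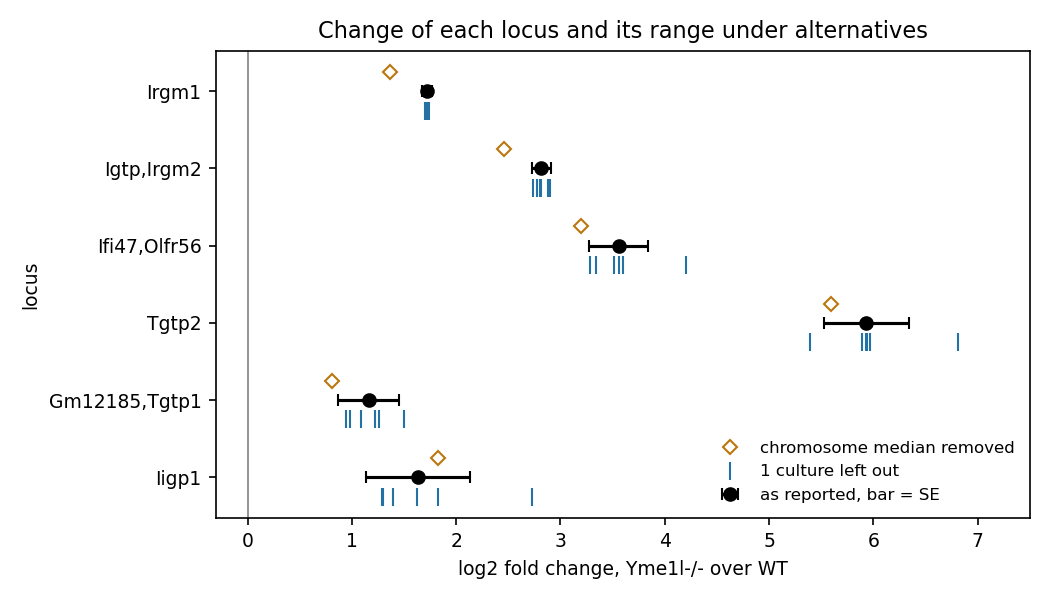
Log2 fold change of each member locus, Yme1l-/- over WT, from edgeR, with its standard error (bar), the values with 1 culture left out (ticks) and the value with the chromosome median removed (diamonds). The values as reported run from 1.16 (Gm12185,Tgtp1) to 5.93 (Tgtp2), against a median of -0.0041 over all tested loci.

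Between genes, levels can be compared only per length, for which the authors' FPKM values (fragments per kilobase of transcript and library size, 1 combined value per genotype and therefore without a spread) were used. In WT the order by FPKM was Irgm1 (14.3), Igtp,Irgm2 (2.95), Ifi47,Olfr56 (0.263), Gm12185,Tgtp1 (0.237), Iigp1 (0.0927) and Tgtp2 (0.0112). In Yme1l-/- it was Irgm1 (47.5), Igtp,Irgm2 (19.6), Ifi47,Olfr56 (2.96), Tgtp2 (1.93), Gm12185,Tgtp1 (0.512) and Iigp1 (0.283). Tgtp2 thus went from the last place to the fourth, and the first 3 places were held by the same loci in both genotypes. The places of Tgtp2 and Gm12185,Tgtp1 depend on the uncertain split of fragments between Tgtp1 and Tgtp2. In WT the third place was narrow (0.263 against 0.237), and 23 of the 40 WT fragments of Ifi47,Olfr56 came from replicate 2. Whether neighbours in this order differ beyond their spread could not be tested on these values.

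In total, the 6 loci took 1219, 1286 and 1229 fragments in WT and 5174, 7946 and 8187 in Yme1l-/-, which is 36.8, 39.3 and 37.6 CPM against 148, 158 and 161 CPM. Most of them came from the regulators. Irgm1 alone gave 79.3%, 76.1% and 80.6% of the fragments of the 6 loci in WT and 64.7%, 63.1% and 62.2% in Yme1l-/-. The share of Igtp,Irgm2 was 18.5%, 19.4% and 16.0% in WT and 29.7%, 31.3% and 31.8% in Yme1l-/-. In every Yme1l-/- library the share of Irgm1 was therefore below, and that of Igtp,Irgm2 above, its share in every WT library.

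**Figure D4:**
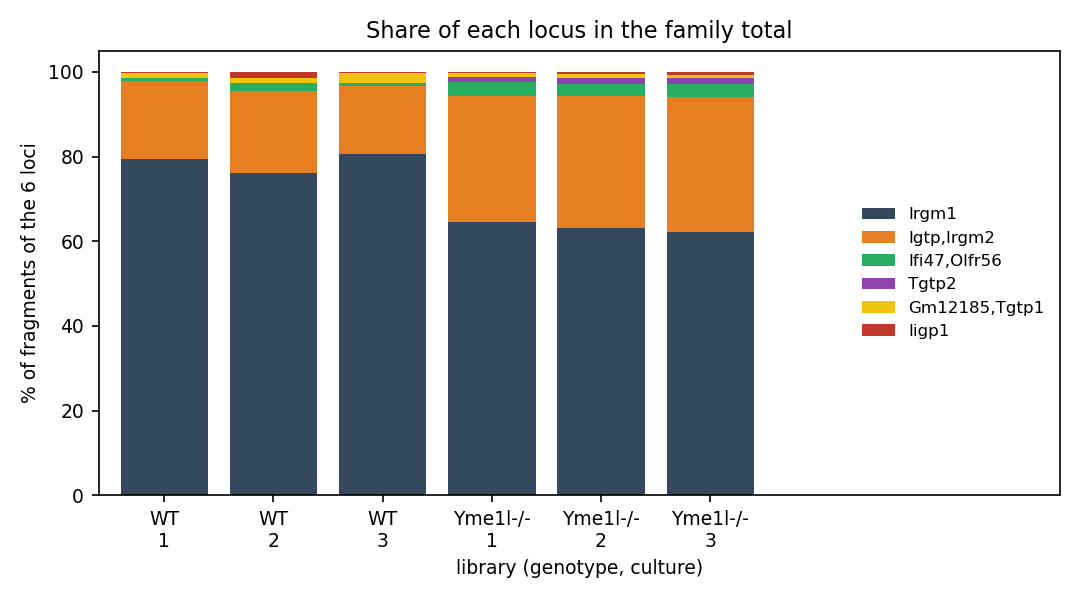
Share of each member locus, in percent of the fragments of the 6 loci, in each of the 6 libraries. Irgm1 takes 76.1% to 80.6% in WT and 62.2% to 64.7% in Yme1l-/-, and the Igtp,Irgm2 locus takes 16.0% to 19.4% in WT and 29.7% to 31.8% in Yme1l-/-.

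A further 10 genes are annotated as immunity-related GTPases or their relatives, and they did not move one way. Of these, 4 could be tested, with 2 called higher and 2 called lower (median log2 fold change 0.39), against 33.6% and 34.1% of all tested loci. The locus of 9930111J21Rik1, which is merged with Psme2b, held 348, 346 and 365 fragments in WT and 881, 1150 and 1188 in Yme1l-/- and was higher by 1.14 ± 0.07 on the log2 scale (edgeR adjusted p = 8.49e-08). Its neighbour 9930111J21Rik2 (Irgb5) held 287, 216 and 225 fragments in WT and 95, 133 and 145 in Yme1l-/- and fell by 1.43 ± 0.13 (edgeR adjusted p = 2.48e-06). Whether 9930111J21Rik1, the near copy, moved the other way cannot be read from a count it shares with Psme2b. Of the 100-base stretches of 9930111J21Rik1 70.5%, and of 9930111J21Rik2 48.3%, also occurred in another gene, and the sum of both loci was higher in Yme1l-/- by 0.55 ± 0.07 (edgeR adjusted p = 2.17e-05, chosen after seeing the data). Gm12250 (Irgb10), an effector in RefSeq that GENCODE M21 annotates as a processed pseudogene, held 2, 4 and 7 fragments in WT and 14, 15 and 18 in Yme1l-/-. Its log2 fold change was 1.37 ± 0.46 (edgeR adjusted p = 0.0214), and this call was lost without WT replicate 1, WT replicate 2 or Yme1l-/- replicate 1, under DESeq2 and with chromosome medians removed, and the locus could not be tested with at least 10 counts in every library. Irgq, a relative outside the interferon-inducible clusters, fell by 0.36 ± 0.06 (edgeR adjusted p = 0.000393). Among the 6 genes too low to be tested, Gm12187 and Irgc1 had no fragment in any library and Gm4951 had 0, 2 and 0 fragments in WT and 6, 15 and 13 in Yme1l-/-.

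Genes of interferon signalling were next counted, a list that holds activators of the family together with inhibitors of the pathway. Of 20 symbols for interferon receptors, kinases, transcription factors, transactivators and inhibitors, 17 loci could be tested. Of these, 11 were called higher and 3 lower (median log2 fold change 0.47), against 33.6% and 34.1% of all tested loci. The highest were Usp18, an inhibitor of type I interferon receptor signalling, at 4.04 ± 0.904 CPM in WT and 34.6 ± 3.43 CPM in Yme1l-/- (log2 fold change 3.10 ± 0.14, edgeR adjusted p = 2.94e-08), and Nlrc5, a transactivator of MHC class I genes (2.84 ± 0.21, edgeR adjusted p = 5.26e-06). Stat2 (1.76 ± 0.08) and Irf1 (1.43 ± 0.06), which encode transcription factors of the interferon response, were also among the highest. Called lower were Socs1, a feedback inhibitor of the receptor kinases (fell by 0.87 ± 0.18), the type I receptor subunit Ifnar1 (fell by 0.19 ± 0.05) and the kinase Tyk2. The change of Tyk2 was -0.17 ± 0.06 and turned to 0.19 when the median of each chromosome was subtracted. The merged locus Gm21970,Ifnar2,Il10rb, which holds the other type I receptor subunit, was higher (0.64 ± 0.05, edgeR adjusted p = 1.17e-06). Of the receptor chains for interferon gamma, which is the strongest known inducer of the family, Ifngr1 rose by 0.47 ± 0.05 and Ifngr2 by 0.59 ± 0.06.

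Guanylate-binding proteins, large GTPases that act on the same vacuoles, and their relatives went in both directions. From 17 symbols 10 loci could be tested, of which 7 were called higher and 3 lower (median log2 fold change 2.02), against 33.6% and 34.1% of all tested loci. Mx1, Mx2, Gbp4,Gbp8,Gbp9 and Gbp10,Gbp6,Gm43302 had under 10 fragments in at least 1 WT library, so they could enter the test through Yme1l-/-. Gm8989, at most 8 fragments in Yme1l-/-, could enter through WT. With at least 10 counts in every library 3 loci were called higher. Gbp5, too low to be tested, held 2, 5 and 3 fragments in WT and 0, 1 and 0 in Yme1l-/-. The 5 highest were Gbp4,Gbp8,Gbp9 (4.28 ± 0.24, from 0.314 ± 0.0626 CPM to 6.14 ± 1.38 CPM), Mx2 (2.94 ± 0.38), Gbp10,Gbp6,Gm43302 (2.70 ± 0.56), Gbp2 (2.67 ± 0.34) and Gbp3 (2.29 ± 0.20). WT replicate 2 was the highest WT library in CPM in all 5 of these loci and in Nlrc5 and Usp18, as it was for Ifi47,Olfr56, Igtp,Irgm2 and Iigp1. For the member loci Irgm1, Gm12185,Tgtp1 and Tgtp2 the highest WT library was replicate 3. Nlrc5 held 84, 152 and 82 fragments in WT and Gbp3 held 90, 143 and 91. Gbp10,Gbp6,Gm43302 held 4, 26 and 3 fragments in WT, Mx2 held 7, 27 and 7, and Gbp2 held 44, 107 and 39. Without that library the log2 fold changes of these last 3 were 4.32, 3.89 and 3.28, and all 3 were still called higher. The 3 called lower belong to the very large inducible GTPases (Gvin1, -2.89 ± 0.18, with Gm4070, -4.21 ± 0.16, and Gm8989, -3.11 ± 0.32), and Gvin1 stood at 16.4 ± 4.16 CPM in WT and 2.23 ± 0.124 CPM in Yme1l-/-. Every one of these 8 calls had an edgeR adjusted p of 0.003 or less, and near-identical copies within these families can exchange fragments.

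Genes linked to the machinery that the GTPases use on vacuoles were counted in 2 lists. Of the genes for conjugation of ATG8 proteins, which help to place the GTPases on vacuoles, 11 were tested, with 5 called higher (Gabarapl1 0.75 ± 0.06, Atg7 0.71 ± 0.07, Atg5 0.59 ± 0.06, Gabarap 0.54 ± 0.06 and Atg3 0.38 ± 0.05) and 2 called lower (Map1lc3a, -0.57 ± 0.07, and Atg16l1, -0.43 ± 0.05). The median log2 fold change was 0.21 and no locus was 2-fold higher. The share of this list that was called in either direction lay near the 67.7% called over all tested loci. Of a list of ubiquitin ligases, ubiquitin receptors and related genes, not all of them known to follow the GTPases to vacuoles, 12 loci were tested. Of these, 10 were called higher and 1 lower (median 0.52), against 33.6% and 34.1% of all tested loci. Trim21 (1.78 ± 0.15), Calcoco1 (1.63 ± 0.08) and Sharpin (1.03 ± 0.06) were the highest, Sqstm1 rose by 0.84 ± 0.05, and Optn fell by 0.32 ± 0.07. Irf9,Rnf31 (0.82 ± 0.05) is a merged locus that holds a ligase subunit and an interferon transcription factor, and it counts in both lists. All of these lists were written from general knowledge with earlier results of these data known.

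**Figure D5:**
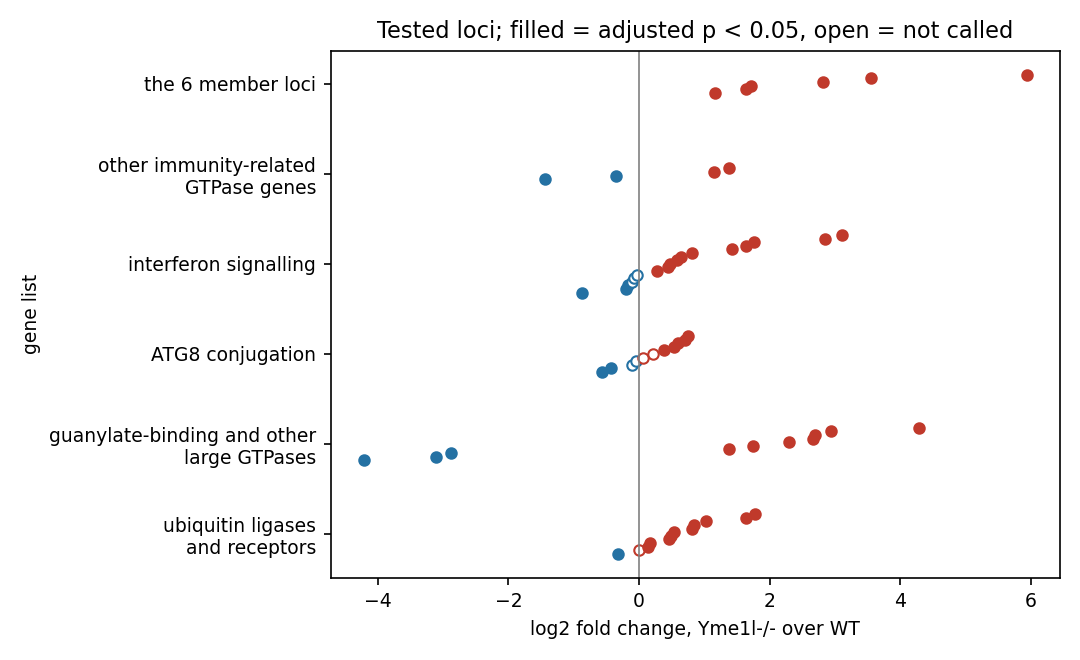
Log2 fold change (Yme1l-/- over WT, edgeR) of every tested locus in the member set and in the 5 related gene lists, each point being 1 locus, with filled points called at an adjusted p under 0.05, open points not called, and red above and blue below 0. The members lie between 1.16 and 5.93, whereas the loci of the other annotated family genes lie on both sides of 0.

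Loci whose levels over the 6 libraries came near to those of Irgm1 were sought by the root mean square difference of log2 CPM after centring on the WT mean. Only tested non-member loci with a mean of at least 1 CPM and a name not starting with Gm were compared, which left out some relatives such as Gm12250. Among them the 5 loci most like Irgm1 were Rassf3 (0.0399), Tmem151b (0.0471), Dab2 (0.0499), Naaa (0.0522) and Lynx1 (0.0568), none of which belongs to the family. The other member loci were farther from Irgm1, at 0.505 for Gm12185,Tgtp1, 0.732 for Iigp1, 0.784 for Igtp,Irgm2, 1.46 for Ifi47,Olfr56 and 2.95 for Tgtp2. With 2 genotypes this measure reflects mainly the size of the change, and 603 of the compared non-member loci were nearer to Irgm1 than Gm12185,Tgtp1 was.

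The nearest tested genes around the members were taken for comparison, some of them far away. Over all tested loci, 33.6% were called higher and 34.1% lower. The 10 nearest tested loci outside the family around the block from Irgm1 to Ifi47 had a median log2 fold change of 0.29, with 6 called higher and 2 lower, and ran from -3.43 (Flt4, at 474 kb) to 1.04 (Trim7, at 8.48 kb). Around Igtp,Irgm2 the median was 0.53, with 8 called higher and none lower, and no neighbour exceeded 0.84. Around Iigp1 the median was -0.17, with 1 called higher and 6 lower, and the changes ran from -7.23 (Megf10, at 3079 kb) to 1.15 (Synpo, at 201 kb). Fbn2, at 2166 kb, was at -3.08, and Smim3, the nearest at 81.6 kb, was at -1.38. Chromosome 11 as a whole had a median of 0.36 over 1112 tested loci, against -0.20 over 346 loci on chromosome 18. After the median of each chromosome was subtracted, Irgm1 was at 1.36, Igtp,Irgm2 at 2.46 and Gm12185,Tgtp1 at 0.81 (edgeR adjusted p = 0.0319 for the last), so each was still called higher.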

How the data were processed

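Per the labels, poly(A)-selected RNA from 3 cultures per genotype was sequenced from stranded libraries. The submitters' processing notes name HISAT2 2.0.4, StringTie 1.3.3, Cufflinks and Cuffdiff 2.2.1 with build GRCm38. The deposited counts are whole fragments per assembled locus, not normalized by the authors. The handling of fragments that map to several places, and the use of strand in counting, are not given in the sources used here. The FPKM values were computed by the authors as 1 value per genotype, and the ratio, test statistic, p-value and q-value columns of their comparison were not used. Samples were grouped by the labels.

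The counts were tested with edgeR 4.0.16 (limma 3.58.1, R 4.3.3; filterByExpr with a minimum count of 10, TMM scaling with factors of 0.973 to 1.04, robust quasi-likelihood test, two-sided, no covariates), tested on simulated data. Adjusted p-values are Benjamini-Hochberg values over 13867 loci, and those under 0.05 were called. CPM was computed on TMM-scaled libraries. Identity of promoters, motifs and shared 100-base stretches were computed from RefSeq GRCm38.p6 and GENCODE M21 with Python 3.11.15 and Biopython 1.88. No libraries of a genotype were duplicates (chi-square per degree of freedom 7.91 to 35.2).

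Members and lists were chosen with earlier results of these data known. The text names the 8 members, Yme1l1, up to 5 highest and 3 lowest calls of each list and the 5 loci most like Irgm1. Other names (Ifngr1, Ifngr2, Ifnar2, Gm4951, Gm12187, Irgc1, neighbours and cell markers) were chosen after their values were seen. Irf8 and Map1lc3b were not analysed here. The value of 1 list locus is not reported here. Alternatives were RLE or upper-quartile scaling, DESeq2 1.42.0, a filter at 10 counts in every library or at a total of 1, the replicate number as a block, chromosome medians removed, and leaving out each library in turn. Intervals cover counting error only.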

Additional observations from a re-analysis of the deposited data

How the results depend on the processing

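All 6 member loci kept their direction under every alternative in which they were tested, with log2 fold changes of 1.36 to 1.78 for Irgm1, 2.46 to 2.90 for Igtp,Irgm2, 3.20 to 4.20 for Ifi47,Olfr56, 5.40 to 6.81 for Tgtp2, 0.81 to 1.50 for Gm12185,Tgtp1 and 1.29 to 2.73 for Iigp1. Iigp1 lost its call without WT replicate 3 and without Yme1l-/- replicate 3, and its adjusted p ranged from 0.000775 to 0.0514 (edgeR and DESeq2). Leaving out each library in turn gave a member median of 2.23 to 2.82, 5 to 6 member loci called, and 1 to 2 of the other annotated family genes called higher. With at least 10 counts in every library fewer loci could be tested, and the member median was 1.73 over 3 loci, all 3 called, with 3 guanylate-binding protein loci called higher. Only 1 other annotated family gene was called higher under DESeq2, under that filter and with chromosome medians removed, which ended the call of Gm12250 or its test, and 1 was called lower when the 9930111J21Rik1 and 9930111J21Rik2 loci were summed. Tyk2 turned to 0.19 with chromosome medians removed (edgeR adjusted p = 0.021). Upper-quartile scaling moved the median of all loci to 0.06 and the share of higher among all calls from 49.6% to 55.1%. The replicate numbers did not pair the libraries: the correlations of same-numbered deviations were 0.198, -0.158 and 0.0482, and WT replicates 2 and 3 did not correlate best with their own number. With the replicate block 9794 loci were called against 9387, and the 6 member loci were called as before (median 2.27). The low WT counts of Tgtp2, Iigp1 and Ifi47,Olfr56 limit how well the size of their change is known.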
